A study of Mus musculus with 17 samples.

Results

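The cathepsins Ctsa, Ctsb, Ctsd, Ctsh, Ctsk, Ctsl, Ctss and Ctsz and their inhibitors Cstb and Cst3 were followed across metastatic mouse mammary tumor cell lines. These 10 genes were taken by symbol from the 55450 genes of the bulk expression table, and the same 10 symbols were read in 3 single-cell count matrices. Of the 10, 9 reached a TPM (transcripts scaled by length and by library) of at least 1 in at least 2 libraries and were tested among 15348 genes. Ctss did not pass, and Ctsk passed only through the lung-derived CD44low lines, so it is given by its levels and left out of the counts, medians and tests of members in the comparisons below.

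The lines came from tumor-bearing organs of young adult female FVB/NJ MMTV-PyMT mice, in which the mammary tumor virus promoter drives the polyoma middle T oncogene mainly in mammary epithelium. Cells of the primary site, the mammary fat pad (MFP), and of tumor-bearing lung, lymph node (LN) and bone marrow (BM) were cultured under conditions meant to favor cancer cells, then sorted as EpCAMhigh cells with low or high surface CD44; no CD44 status is given for MFP. Bulk RNA-seq covered 14 libraries, 2 for each of 7 groups, and the libraries of a group were separate clonal isolates from different mice, so each group describes 2 isolates of a cultured line. Single-cell libraries covered lung-derived CD44high (lungH), lung-derived CD44low (lungL) and LN-derived CD44high cells (lymphH), 1 library each.

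Cathepsins are proteases that work mostly in the acidic lumen of lysosomes, where they are activated by removal of a propeptide. Tumor cells and the cells around them can also secrete them, and secreted cathepsins are known for cleaving extracellular matrix and adhesion proteins. Cystatins bind the active site of cysteine cathepsins: Cst3 (cystatin C) is secreted and Cstb (stefin B) stays largely in the cytosol. The aspartic protease Ctsd and the serine carboxypeptidase Ctsa are not inhibited by this family.

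Before the members are described, the sort label of the lung lines has to be set beside the data. The summed TPM of 10 epithelial markers was 7201 and 8328 in MFP and 2256 to 4840 in the LN and BM libraries, but 2.43 and 2.61 in lung CD44low and 16 and 87.7 in lung CD44high. Epcam itself was listed at 0 in both lung CD44low libraries and at 0.23 and 0.86 TPM in lung CD44high. The sum of 10 fibroblast markers was 4789 and 5230 TPM in lung CD44low, 103 and 216 in lung CD44high and at most 46.2 elsewhere. Of 14 macrophage markers, 5 to 9 were at 0 in both libraries of every group, and their sum was 22.1 to 268 TPM, highest in BM CD44high (119 and 268, of which Cd14 was 116 and 262). Lyz2, of the same list, was at 35.2 and 34.8 TPM in lung CD44low and at most 18.5 elsewhere. Cd14 went the other way and was lowest in lung CD44low, at 10.1 and 6.69 TPM. Cd68 was at 3.67 and 3.96 TPM there, beside 10.4 and 22.45 in MFP. The summed osteoclast markers reached 4.14 TPM at most. Lung lines and the lines they are compared with therefore also differed in the epithelial and fibroblast sums. Lines compared with MFP also differed from it in the epithelial sum, and the part of these sums was not tested. Not every member followed the fibroblast sum, since Ctsd and Ctsh were highest in lung CD44high (below). In bulk samples, fewer cells of a type and less RNA per cell cannot be told apart. The files give no reads per library; 11508 to 13052 genes reached 1 TPM, with the highest number in BM CD44low replicate 2.

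Promoter sequence is shown first, because many lysosomal genes carry the E-box core CACGTG, the site bound by the lysosomal regulators Tfeb, Tfe3 and Mitf. RefSeq windows on GRCm38.p6 (the mm10 build) were held for 7 of the 10 members, with 2 starts for Ctsa. No entry was found for Ctsb, Ctsh and Cstb. In the 250 bases before the start, CACGTG, which reads the same on both strands, stood 2 times at Ctsd and 1 time each at Ctsl and at the second start of Ctsa. It was not found at Ctsk, Ctss, Ctsz, Cst3 or the first start of Ctsa, and 6.02% of 32851 windows of the same length held it. Of the 4 matches, 3 (the nearer at Ctsd, and those at Ctsl and Ctsa) lay inside the annotated gene, and the farther at Ctsd lay outside it. The 4 matches are printed 5′ to 3′ on the strand of the gene, with the E-box core in capitals and the distance of its first base from the start.
Ctsd, 245 bases before the start (chr7:142388057-142388077, minus strand): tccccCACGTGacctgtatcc
Ctsd, 98 bases before the start (chr7:142387910-142387935, minus strand): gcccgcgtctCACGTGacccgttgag
Ctsl, 236 bases before the start (chr13:64370741-64370766, minus strand): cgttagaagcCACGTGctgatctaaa
Ctsa, 12 bases before its second start (chr2:164833751-164833772, plus strand): agcaaactgtCACGTGatgcag

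The windows of Ctsk and Ctsz are printed whole because these genes differed most between the CD44 sorts of the lung lines (below) and hold no E-box core. Capitals in the Ctsz window mark the GC box GGGCGG, the site of Sp factors, on the printed strand; its 2 matches share 1 base. That motif was found in 32.7% of all windows, and at least 1 time at Ctss, Ctsz, Ctsd and Cst3. The AP-1 motif TGACTCA was found in none of the members' windows and in 4.46% of all windows. The windows were 43.2% (Ctsk) to 67.2% (Ctsd) G and C, against a median of 52.4% over all promoters.
Ctsk (chr3:95498960-95499209, plus strand): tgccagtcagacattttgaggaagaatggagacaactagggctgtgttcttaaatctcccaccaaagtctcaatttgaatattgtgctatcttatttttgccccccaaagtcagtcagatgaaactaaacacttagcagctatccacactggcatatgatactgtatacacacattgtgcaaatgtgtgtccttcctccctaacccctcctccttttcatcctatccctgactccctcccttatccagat
Ctsz (chr2:174439040-174439289, minus strand): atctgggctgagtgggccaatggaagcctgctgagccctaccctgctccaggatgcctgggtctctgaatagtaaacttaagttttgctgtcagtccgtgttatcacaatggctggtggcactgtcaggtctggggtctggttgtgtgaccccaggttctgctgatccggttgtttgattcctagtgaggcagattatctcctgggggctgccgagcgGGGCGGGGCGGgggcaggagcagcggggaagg

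**Figure D1:**
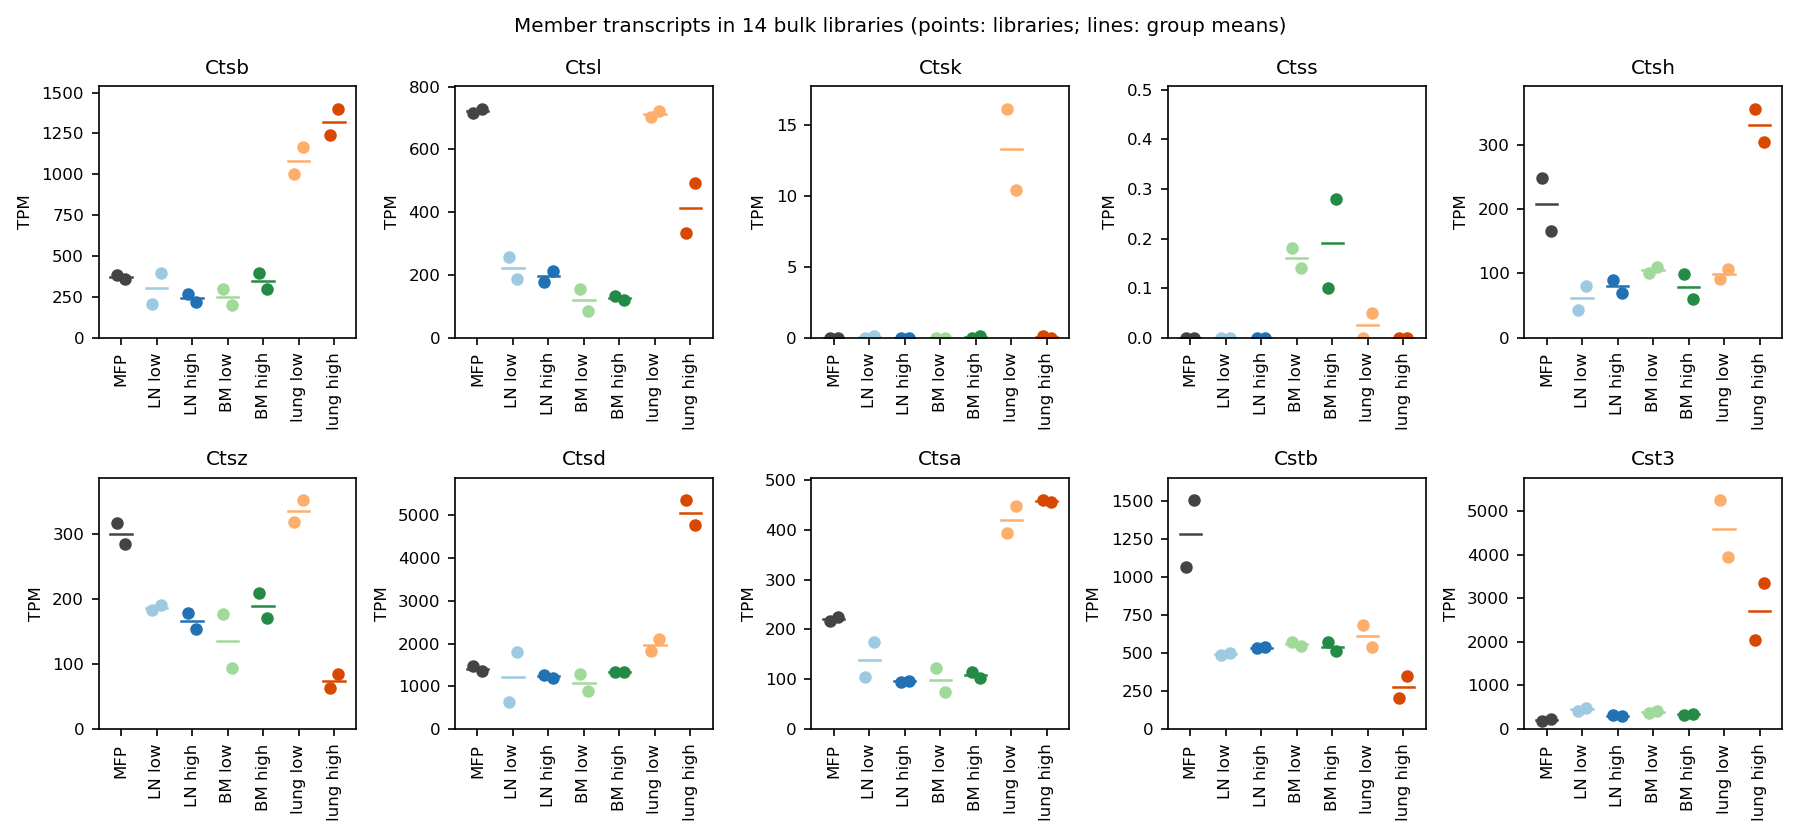
TPM (linear axes from 0, scaled per gene) of the 10 members in 14 bulk libraries; points are libraries and lines the mean of the 2 libraries of a group. Ctsb, Ctsa and Cst3 are highest in both lung groups, Ctsd and Ctsh in lung CD44high, and Ctsk is above 1 TPM only in lung CD44low.

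Levels are TPM, which are scaled per transcript length and so can be compared between genes. Ctsb (ENSMUSG00000021939.8, chr14:63122462-63145923), a cysteine protease that cuts within proteins and trims dipeptides from their ends, had its highest levels in the lung lines. It stood at 1241 and 1399.9 TPM in lung CD44high and at 1002 and 1164 in lung CD44low. It stood at 381 and 359.6 TPM in MFP, 207 and 396 in LN CD44low, 266 and 219 in LN CD44high, 299.0 and 197 in BM CD44low, and 392 and 295 in BM CD44high. All 4 lung libraries lay above the other 10, and in the order of group means each neighbouring pair of MFP, BM CD44high, LN CD44low, BM CD44low and LN CD44high overlapped.

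Ctsl (ENSMUSG00000021477.9, chr13:64359337-64370890), an endopeptidase of lysosomes and matrix, was at 717 and 729 TPM in MFP and at 703 and 722 in lung CD44low, and these groups overlapped. It was lower in lung CD44high, at 334 and 493 TPM. The LN lines held 256 and 188 TPM (CD44low) and 177 and 213 (CD44high), and the BM lines 154 and 84.3 (CD44low) and 133 and 121 (CD44high). The 8 LN and BM libraries were thus all below the 6 MFP and lung libraries.

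Ctsk (ENSMUSG00000028111.4, chr3:95499256-95509362), the collagen-degrading protease best known from osteoclasts, was at 16.2 and 10.4 TPM in lung CD44low. In the other 12 libraries it was between 0 and 0.12 TPM. Ctss (ENSMUSG00000038642.10), a protease of antigen-presenting cells encoded close to Ctsk, did not pass 0.28 TPM in any library. The osteoclast marker sum in lung CD44low was 2.38 and 4.13 TPM, within the range of the other groups. Of that list, Acp5 was at 2.05 and 3.85 TPM in lung CD44low and at most 1.32 elsewhere. Tnfrsf11a was at 0 and Itgb3 at 0.07 and 0.04 TPM in lung CD44low. The fibroblast marker sum in the same libraries was 4789 and 5230 TPM, of which Dcn was 4091 and 4315. The part of either cell type in the Ctsk level was not tested.

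Ctsh (ENSMUSG00000032359.14, chr9:90054152-90076089), an aminopeptidase, was at 356 and 305 TPM in lung CD44high and at 248.5 and 167 in MFP. It was at 90.7 and 107 TPM in lung CD44low, 43.5 and 80.4 in LN CD44low, 90.1 and 69.4 in LN CD44high, 101 and 109.5 in BM CD44low, and 99.1 and 59.6 in BM CD44high. The lung CD44low libraries overlapped those of BM CD44low and lay in the range of the LN and BM lines, far below lung CD44high.

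Ctsz (ENSMUSG00000016256.10, chr2:174427493-174439039), a carboxypeptidase, showed the reverse order in the lung lines. It was at 319 and 351 TPM in lung CD44low and at 63.7 and 85.0 in lung CD44high, the lowest libraries of all. MFP held 317 and 284 TPM, LN CD44low 183 and 190.0, LN CD44high 178 and 154, BM CD44low 177 and 93.9, and BM CD44high 209 and 170.0. Lung CD44low and MFP together stood above all LN and BM libraries.

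Ctsd (ENSMUSG00000007891.16, chr7:142375911-142388038), the main aspartic protease of lysosomes, had the highest TPM of the 8 cathepsins in every library. It was at 5352 and 4766 TPM in lung CD44high and at 1818 and 2101 in lung CD44low. MFP held 1469 and 1362 TPM, LN CD44high 1269 and 1197, BM CD44low 1280.2 and 890.1, and BM CD44high 1328 and 1331. The LN CD44low libraries lay far apart, at 632 and 1802 TPM, and the higher of them was just below the lower lung CD44low library. Of the exonic bases of Ctsd, 34.4% are shared with Gm49369 on the same strand, which was listed at 3.6 TPM at most, and the split of reads between them is the quantifier's estimate. On the opposite strand, Ctsb shares 12.8% of its exonic bases with Fdft1 (up to 67 TPM), and Ctsa 10.5% with Pltp (up to 89.8 TPM) and 6.87% with Neurl2 (up to 9.76 TPM).

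Ctsa (ENSMUSG00000017760.16, chr2:164832873-164841032), a serine carboxypeptidase that also protects lysosomal sialidase and galactosidase, was at 394 and 447 TPM in lung CD44low and at 459 and 456 in lung CD44high. MFP held 216 and 225 TPM. The LN and BM libraries held 74.7 to 174 TPM, all below MFP, and their 4 groups overlapped in the order of the means.

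Of the inhibitors, Cst3 (ENSMUSG00000027447.6, chr2:148871722-148875692) was at 5243 and 3947 TPM in lung CD44low and at 2034 and 3358 in lung CD44high. It was at 412 and 488 TPM in LN CD44low, 375 and 408 in BM CD44low, 333 and 348 in BM CD44high, 312 and 299 in LN CD44high, and 175 and 231 in MFP. No neighbouring groups overlapped in this order, which is that of the 7 group means. Cstb (ENSMUSG00000005054.7, chr10:78425669-78427622) was highest in MFP, at 1063 and 1504 TPM. Cstb was at 682 and 541 TPM in lung CD44low and 202 and 347 in lung CD44high. It was at 489.6 and 503 TPM in LN CD44low, 534 and 538 in LN CD44high, 575 and 546 in BM CD44low, and 570.0 and 510.4 in BM CD44high.

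The sum of the family and the mix of its inhibitors both differed between lines. The 10 members summed to 0.459% and 0.486% of all TPM in MFP, to 0.233% to 0.382% in the LN and BM libraries and to 0.939% to 1.12% in the lung libraries. The ratio of Cst3 to Cstb was 0.164 and 0.153 in MFP, 0.556 to 0.971 in LN and BM, and 7.29 to 10.1 in lung. The ratio of summed cysteine cathepsins to summed cystatins was 1.34 and 0.887 in MFP, 0.508 to 0.923 in LN and BM, and 0.360 to 0.892 in lung, with overlapping ranges. Cst3 made up 14.1% and 13.3% of the 2 cystatins in MFP and 87.9% to 91.0% in lung. Ctsd made up 53.3% and 42.5% of the member sum in lung CD44high and 17.7% and 22.4% in lung CD44low. These shares are descriptions of each library and carry no test.

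**Figure D2:**
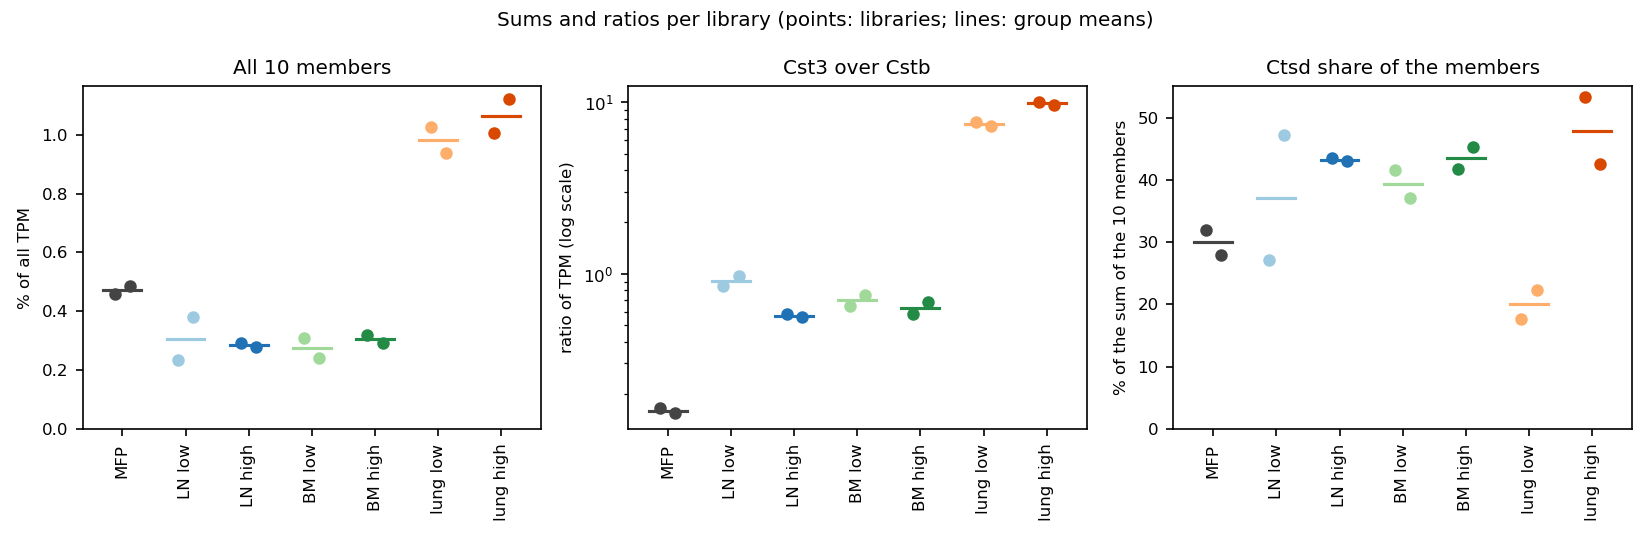
Per library, the sum of the 10 members as a percentage of all TPM, the ratio of Cst3 to Cstb on a log axis, and Ctsd as a percentage of the member sum; points are libraries and lines group means. The lung libraries stand above the rest in the member sum (0.939% and more) and in the ratio (7.29 and more), and the lung CD44low libraries have the lowest Ctsd shares.

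The first comparison asked whether the members differ between lung-derived lines and lines from the other metastatic sites. Of 8 members, 6 were higher in the 4 lung libraries than in the 8 LN and BM libraries and none was lower, where 35.9% of all tested genes were higher and 24.0% lower (limma, Benjamini-Hochberg adjusted p under 0.05). Cst3 differed most, with a log2 fold change of 3.23 ± 0.16 (SE; adjusted p = 1.357e-07), which is 9.36-fold on the scale of log2(TPM + 1). Ctsb was 2.11 ± 0.19 higher (4.33-fold, adjusted p = 1.012e-05), Ctsa 2.02 ± 0.17 (4.05-fold, adjusted p = 4.908e-06) and Ctsl 1.77 ± 0.18 (3.40-fold, adjusted p = 2.207e-05). Ctsd was 1.43 ± 0.24 higher on the log2 scale (adjusted p = 0.000676), and for these 5 genes every lung library stood above every LN and BM library.

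Ctsh (log2 difference 1.19, adjusted p = 0.000729) also passed, but its lung libraries overlapped the others, since it was high in lung CD44high alone. Ctsz did not pass (log2 difference -0.07, 95% interval -0.46 to 0.31), with lung CD44low above and lung CD44high below the LN and BM lines. Cstb missed the threshold (-0.41, adjusted p = 0.0531). The median log2 difference was 1.60 over the 8 members and 0.196 over all tested genes. All 6 calls remained when any 1 library was left out and under each other setting tried. Median-ratio scaling moved the median of all genes to -0.012 and its calls from 5511 higher and 3678 lower to 4583 and 4652, and added Cstb as lower (-0.69, adjusted p = 0.0143), as did leaving out lung CD44high replicate 2 (-0.60, adjusted p = 0.00725).

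**Figure D3:**
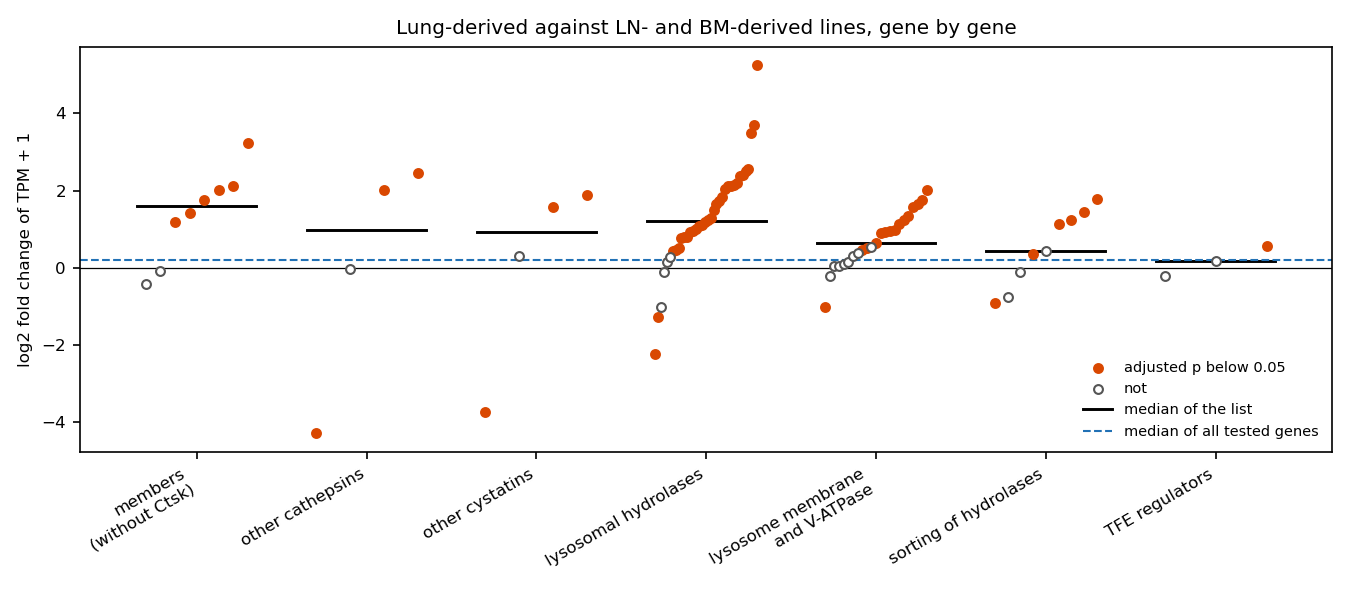
Log2 fold change of TPM + 1 between the 4 lung libraries and the 8 LN and BM libraries for each tested gene of 7 lists; filled points have an adjusted p below 0.05, black bars are list medians and the dashed line is the median of all tested genes. The median of the 8 members without Ctsk is 1.60, that of 36 lysosomal hydrolases 1.21 and that of all genes 0.196. The other lists keep genes that needed lung libraries to pass the filter on low TPM, such as Dpp7 and Ctsf.

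The wider lysosomal set gives the setting of these differences. Over all tested genes 35.9% were higher and 24.0% lower in this comparison. Of 36 other lysosomal hydrolases, 30 were higher and 2 lower in lung than in LN and BM, with a median log2 difference of 1.21. The 30 include Dpp7, which passed the filter on low TPM only through the lung libraries and so could only come out higher. Of 23 genes of the lysosomal membrane and its proton pump, 14 were higher and 1 lower (median 0.644). Of 9 genes that sort hydrolases by mannose 6-phosphate, 5 were higher and 1 lower (median 0.444). Of the 4 genes of the Tfeb family, 3 were tested and 1 was higher. Under median-ratio scaling these counts were 26 and 3, 10 and 1, 4 and 1, and 1 and 0.

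Among the genes of these lists, the naming rule (the largest called rises and falls) took Dpp7, a dipeptidyl peptidase, and Pla2g15, a lysosomal phospholipase, as higher in lung than in LN and BM. Dpp7 was at 30.2 to 46.3 TPM in lung, 1.5 and 0.07 in MFP and at most 0.14 in LN and BM. It passed the filter on low TPM only through the lung libraries, so it is given by its levels. Pla2g15 was at 34.8 to 42.9 TPM in lung and 1.14 to 3.25 in LN and BM (log2 difference 3.69, adjusted p = 1.96e-07). The largest falls were in Ctsc, the cathepsin that activates granule proteases, and in the secreted cystatin Cst6. Ctsc was at 9.82 to 40.4 TPM in LN and BM and at most 0.34 in lung (adjusted p = 1.115e-07), and its fold is not given because the lung libraries were at or near 0. Cst6 was at 177 to 285 TPM in LN and BM, 6.57 to 51.9 in lung and 1.46 and 0.37 in MFP (lung against LN and BM -3.73, adjusted p = 1.538e-07).

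Against MFP, the 6 comparisons ask how each line differs from the primary tumor line, and all share the same 2 MFP libraries. In lung CD44low, 3 of 8 members were higher and 2 lower, where 21.9% of tested genes were higher and 23.1% lower. In lung CD44high, 4 were higher and 2 lower, where the shares of all genes were 14.9% and 21.2%. The member medians were 0.312 and 0.872, beside 0 and -0.042 over all tested genes. Cst3 was higher by 4.50 ± 0.26 (log2, SE; adjusted p = 5.139e-07) in lung CD44low and by 3.70 ± 0.26 (adjusted p = 4.372e-06) in lung CD44high. Ctsb was higher by 1.54 ± 0.31 (adjusted p = 0.00304) and by 1.83 ± 0.31 (adjusted p = 0.00147). Epithelial markers were lower in both lung groups, 9 of the 9 tested.

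In lung CD44high, Ctsd was higher than in MFP by 1.84 ± 0.40 on the log2 scale (adjusted p = 0.00535), Ctsz was lower at -2.01 ± 0.28 (adjusted p = 0.000397) and Cstb was lower at -2.25 ± 0.27 (adjusted p = 0.000141). The calls of Cst3 and Ctsb in both lung groups, and of Ctsd, Ctsz and Cstb in lung CD44high remained whichever library was left out. Ctsa was higher in lung CD44low (0.93, adjusted p = 0.0188) and lung CD44high (1.05, adjusted p = 0.0127), and both calls were lost without any 1 of the 4 libraries compared, at adjusted p of 0.0548 to 0.0998 and 0.0502 to 0.0656. Ctsh was lower in lung CD44low (-1.04, adjusted p = 0.0306), which was lost without MFP replicate 1 (0.193) or either lung CD44low library (0.147 and 0.0772), with no filter on low TPM (0.0609) and under median-ratio scaling (0.0900). Cstb was lower in lung CD44low (-1.06, adjusted p = 0.00916), lost without MFP replicate 2 (adjusted p = 0.0784) or lung CD44low replicate 2 (0.0723).

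In the LN and BM lines, 3 or 4 of the 8 members were lower than in MFP. In LN CD44low, 1 member was higher and 3 lower (all genes 4.50% higher, 9.51% lower). In LN CD44high, none was higher and 4 were lower (5.87% and 17.9%). In BM CD44low, 1 was higher and 4 lower (9.36% and 13.8%), and in BM CD44high none was higher and 4 were lower (8.38% and 18.6%). The median over the members was -0.693, -1.02, -1.06 and -0.841 in these 4 groups, and that over all tested genes -0.175, -0.301, -0.0387 and -0.336. Of the 9 tested epithelial markers, 5, 3, 4 and 4 were also lower (medians -2.02, -0.837, -1.31 and -1.32), and their part was not tested.

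Ctsl was lower in all 4, by a log2 fold change of -1.72 ± 0.29 (adjusted p = 0.00352) in LN CD44low, -1.89 ± 0.29 (adjusted p = 0.00152) in LN CD44high, -2.66 ± 0.29 (adjusted p = 0.000182) in BM CD44low and -2.50 ± 0.29 (adjusted p = 0.000238) in BM CD44high. Its calls remained under median-ratio scaling and whichever library was left out. When LN CD44low and MFP were fitted alone, its adjusted p was 0.0613.

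Cstb was also lower than MFP in all 4, with log2 fold changes of -1.35, -1.24, -1.17 and -1.23 in the same order (adjusted p = 0.00777, 0.00832, 0.0111 and 0.00784). Each of these calls was lost without MFP replicate 2 (adjusted p 0.0693 to 0.0919), the higher MFP library, and under median-ratio scaling (0.0854 to 0.216). Without a library of their own group, the LN CD44high call also ended at 0.051 (replicate 1) and 0.0502 (replicate 2), and the BM CD44high call at 0.0555 (replicate 2).

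Ctsh was lower in LN CD44low (-1.76, adjusted p = 0.00662), LN CD44high (-1.35, adjusted p = 0.0170) and BM CD44high (-1.39, adjusted p = 0.0136). Each of these was lost without MFP replicate 1 (adjusted p = 0.0643, 0.124 and 0.104), and the latter pair without replicate 2 of their own group (0.114 and 0.106). Under median-ratio scaling the Ctsh calls in LN CD44high and BM CD44high were also lost (adjusted p = 0.2027 and 0.1866). Ctsa was lower in LN CD44high (-1.20, adjusted p = 0.0106), BM CD44low (-1.20, adjusted p = 0.0108) and BM CD44high (-1.01, adjusted p = 0.0204). Median-ratio scaling ended all of these Ctsa calls (adjusted p = 0.2905, 0.1269 and 0.4821). These were lost without either MFP library (0.0519 to 0.0944), without either library of LN CD44high (0.0619 and 0.0565) or BM CD44high (0.0714 and 0.107), and without BM CD44low replicate 2 (0.0571). Ctsz was lower in BM CD44low (-1.21, adjusted p = 0.0121), lost without MFP replicate 1 and under median-ratio scaling (adjusted p = 0.1099 with that scaling).

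Cst3 was higher than MFP in LN CD44low (1.16, adjusted p = 0.0151) and BM CD44low (0.96, adjusted p = 0.0247). Both were lost without MFP replicate 1 (0.121 and 0.163), and without replicate 2 of LN CD44low (0.0845) or BM CD44low (0.0802). In LN CD44high and BM CD44high, Cst3 differed from MFP by 0.60 (adjusted p = 0.125) and 0.76 (adjusted p = 0.056). Under median-ratio scaling, which moved the medians of all genes to 0.0167, 0.0201, 0.111 and 0.0375, members lower than MFP numbered 2 in LN CD44low and 1 in each of the other 3 groups, and 1 was higher in each. Over all genes that scaling changed the calls in LN CD44high from 901 higher and 2752 lower to 1389 and 1199, and in BM CD44high from 1286 and 2858 to 1827 and 1257.

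**Figure D4:**
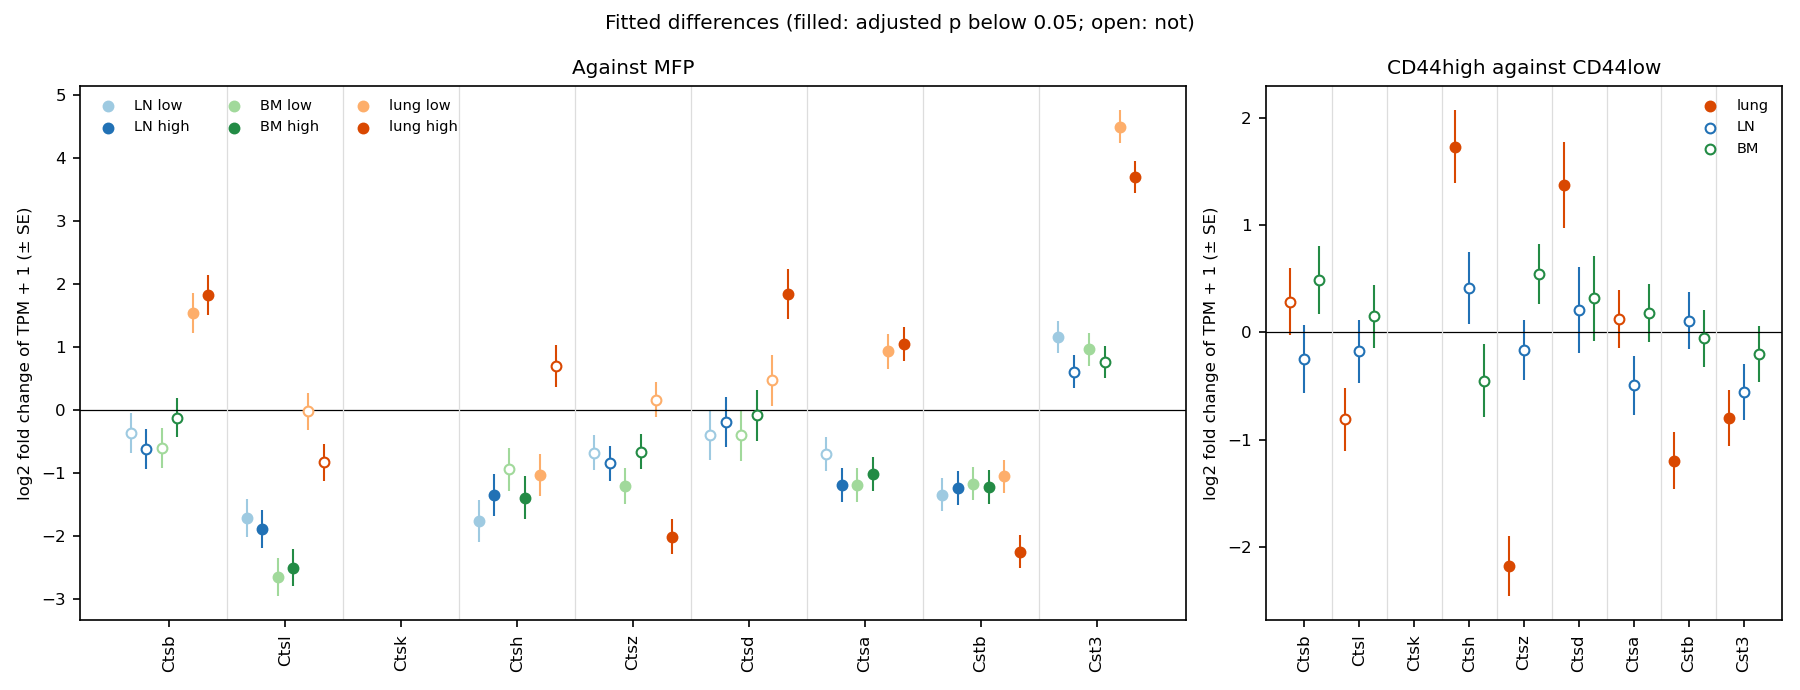
Log2 fold changes of TPM + 1 with SE for 8 members (Ctsk is left out), against MFP (left) and between CD44high and CD44low lines of 1 organ (right); filled points have an adjusted p below 0.05. Cst3 is above 0 in all 6 comparisons with MFP and Cstb below 0, and in the right panel only points of the lung lines are filled.

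The other lysosomal lists were counted against MFP in the same way, and the shares of all tested genes are those given above for each comparison. Of the 36 other hydrolases, with Dpp7 included, 19 were higher and 3 lower in lung CD44low, and 18 higher and 3 lower in lung CD44high. In LN CD44high 2 were higher and 17 lower, in LN CD44low 2 and 8, in BM CD44low 2 and 14, and in BM CD44high 2 and 10. With median-ratio scaling these lower counts were 3, 2, 6 and 2. Of the 23 membrane and proton pump genes, 4 were higher and 6 lower in lung CD44low and 4 and 5 in lung CD44high. In LN and BM none of them was higher, and 4 (LN CD44low), 16 (LN CD44high), 10 (BM CD44low) and 13 (BM CD44high) were lower, of which median-ratio scaling left 0, 0, 2 and 0. Of the 9 sorting genes 2 were higher and 2 lower in lung CD44low (5 and 2 under median-ratio scaling), 1 and 1 in lung CD44high, 0 and 1 in LN CD44low, 0 and 2 in LN CD44high, and 1 and 2 in each BM group. Of the 3 tested Tfeb family genes, 3 were higher in lung CD44low under both scalings and 1 in BM CD44low, and none was called in the other 4 groups, where median-ratio scaling made 1 higher in LN CD44high and 1 in BM CD44high.

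The largest rises over MFP in the LN and BM lines, among the genes of these lists, were in Cst6 and in Hexa, a subunit of beta-hexosaminidase. Cst6 was at 1.46 and 0.37 TPM in MFP and 177 to 285 in LN and BM (adjusted p = 5.006e-07 in LN CD44low and 7.668e-07 in BM CD44high). Hexa was at 0.13 and 0 TPM in MFP, at 40.8 to 102 in LN and BM, and at 181 and 172 in lung CD44low, and no fold is given against a group at or near 0. Among other cathepsins, Ctso was at 11.2 and 9.56 TPM in MFP and at most 1.57 in LN and BM, and Ctsw, a cathepsin known from cytotoxic lymphocytes, at 9.78 and 4.77 in MFP and at most 1.68 in LN. Both passed in LN CD44low (adjusted p = 0.000567 and 0.0105) and LN CD44high (adjusted p = 8.234e-05 and 0.00532). Nagpa, which uncovers the mannose 6-phosphate tag, was at 41.5 and 36.8 TPM in MFP and 5.58 to 6.87 in BM (adjusted p = 7.156e-05 in BM CD44low and 7.318e-05 in BM CD44high). Gusb, the lysosomal glucuronidase, was at 139 and 78.0 TPM in MFP and 9.94 and 7.48 in lung CD44high (adjusted p = 7.441e-06).

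The comparison of CD44high with CD44low lines asked whether members differ with the sort inside 1 organ. In lung, 2 of 8 members were higher and 3 lower in CD44high, where 12.2% of tested genes were higher and 18.5% lower. Median-ratio scaling left 1 higher and 2 lower. In LN no member was called in either direction, where 0.189% of genes were higher and 0.189% lower. In BM also none was called, where 0.0717% were higher and 0.0782% lower, and at an unadjusted p under 0.05 no member differed in LN or BM. Leaving out BM CD44low replicate 1 made Ctsz higher in BM CD44high (log2 difference 0.998, adjusted p = 0.0185).

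Within lung, Ctsz was lower in CD44high (log2 difference of TPM + 1 of -2.17 ± 0.28, SE; 4.50-fold, adjusted p = 0.000269) and Ctsh was higher by 1.73 ± 0.34 (3.32-fold, adjusted p = 0.00374). Both calls remained whichever library was left out. Ctsd was higher in CD44high (1.37, adjusted p = 0.0270), Cstb lower (-1.19, adjusted p = 0.00761) and Cst3 lower (-0.80, adjusted p = 0.0417). The Ctsd call was lost without any 1 of the 4 lung libraries (adjusted p 0.0762 to 0.142), with no filter on low TPM (0.0549), under median-ratio scaling (0.0646) and when the lung groups were fitted alone (0.0638). That of Cstb was lost without lung CD44low replicate 1 (0.0674) or lung CD44high replicate 1 (0.053), and with the lung groups alone (0.0972). The Cst3 call was lost in 9 of the 14 fits with 1 library left out, of which the largest value was 0.266, without lung CD44high replicate 1, and also with no filter (0.0713), under median-ratio scaling (0.102) and with the lung groups alone (0.285). Ctsl (-0.81, adjusted p = 0.0634, but 0.0187 without either BM CD44low library), Ctsb (0.29, 95% interval -0.42 to 0.99) and Ctsa (0.12, 95% interval -0.48 to 0.73) did not pass. The median over the members was -0.337, and that over all tested genes -0.00823.

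An interaction contrast tested whether the CD44 difference in lung differed from that in LN or BM. Of 8 members, 2 passed against LN, where 19.5% of genes did, and 2 against BM, where 15.3% did. Ctsz passed in both, with a lung difference minus LN difference of -2.00 ± 0.40 (log2, SE; adjusted p = 0.0062) and a lung difference minus BM difference of -2.71 ± 0.40 (adjusted p = 0.00102). Ctsh passed against BM (2.18 ± 0.48, adjusted p = 0.0119) and not against LN (1.32, adjusted p = 0.084), and Cstb against LN (-1.30 ± 0.38, adjusted p = 0.0367) and not against BM (-1.14, adjusted p = 0.0729). The Ctsh call was lost without BM CD44high replicate 2 (0.0505) or lung CD44low replicate 1 (0.0555), and the Cstb call in 9 of the 14 fits with 1 library left out (up to 0.131, without lung CD44low replicate 1). Without LN CD44low replicate 1, the library with the low Ctsd level, Ctsd (1.92, adjusted p = 0.0053) and Ctsh (1.75, adjusted p = 0.0277) passed against LN. Against BM, Ctsl passed without BM CD44low replicate 1 (-1.39, adjusted p = 0.0239), Ctsd without LN CD44low replicate 1 or 2 (1.05, adjusted p = 0.0448 and 0.0437) and Cstb without lung CD44high replicate 2 (-1.53, adjusted p = 0.0142). The fibroblast marker sums (4789 and 5230 TPM in lung CD44low against 103 and 216 in lung CD44high) moved with the same split, and their part was not tested.

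In the same lung comparison, 6 of the 36 other hydrolases were higher and 7 lower in CD44high (median -0.167), 5 and 4 of the 23 membrane and pump genes, 1 and 3 of the 9 sorting genes, and none and 2 of the 3 tested Tfeb family genes. Hexa was listed at 0 in both lung CD44high libraries, beside the 181 and 172 TPM of lung CD44low. Ctsf, a further cysteine cathepsin, was at 17.7 and 15.6 TPM in lung CD44low and at 0.21 and 0 in lung CD44high, beside 2.53 and 0.95 in MFP and at most 0.38 in LN and BM, so it too depended on 1 group to pass the filter and is given by its levels. The pump subunit Atp6v1b2 was at 62.3 and 75.3 TPM in lung CD44low and at 281 and 285 in lung CD44high (2.03, adjusted p = 0.000265). Outside the naming rule, and named as regulators of the E-box, the Tfeb family genes are given by their levels. Tfe3 was at 39.3 and 41.9 TPM in lung CD44low, 16.6 and 13.1 in lung CD44high, 21.9 and 24.1 in MFP, and 18.1 to 36.0 in LN and BM. Mitf was at 3.4 and 3.74 TPM in lung CD44low and at most 1.78 elsewhere. Tfeb was between 1.12 and 6.47 TPM in 13 libraries and at 16.2 in BM CD44low replicate 2.

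The single-cell libraries gave a second look at 3 of these lines by counting 3′ ends in single cells. Kept were 1236 of 3623 barcodes in lungH, 348 of 2808 in lungL and 2562 of 3297 in lymphH, with medians of 557, 4011 and 585 counts per cell. With 1 library per line there is no test, and the exact Poisson intervals below cover counting error only. Per 10000 counts, Ctsd was at 34.8 in lungH (95% interval 34.0 to 35.5), 15.8 in lungL (15.3 to 16.3) and 13.4 in lymphH (13.1 to 13.7). The mean of per-cell values was 30.8, 13.8 and 7.53, so the Ctsd level of lymphH rested on its deeper cells. Ctsb, the highest member in lungL, was at 13.9 in lungH (13.4 to 14.4), 25.2 in lungL (24.5 to 25.9) and 3.63 in lymphH (3.47 to 3.79).

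Ctsl was at 4.74, 8.07 and 2.22 per 10000 in lungH, lungL and lymphH, and Ctsa at 4.88, 6.02 and 2.96, with intervals that did not overlap. Ctsz was at 0.665 in lungH, 1.95 in lungL and 1.05 in lymphH, again lowest in the CD44high lung line. Ctsk had 98 counts in 40 of 348 cells in lungL (0.441 per 10000, 95% interval 0.358 to 0.538), no count in lungH (a limit of 0.0136 per 10000) and 1 count in lymphH. Ctss had no count in any library, where the limit of 3 counts is 0.0136, 0.0135 and 0.00567 per 10000. The exact 95% upper bounds for no count are somewhat higher, at 0.0167, 0.0166 and 0.00698.

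Ctsh was at 0.353 per 10000 in lungH (0.279 to 0.440), 0.0766 in lungL (0.0446 to 0.123) and 0.363 in lymphH (0.314 to 0.418). It was therefore not separated between lungH and lymphH, although bulk Ctsh was 305 to 356 TPM in lung CD44high and 69.4 to 90.1 in LN CD44high. Cst3 was at 9.63 in lungH (9.23 to 10.1), 5.17 in lungL (4.88 to 5.48) and 3.32 in lymphH (3.16 to 3.48), so the order of the lung lines was opposite to that of the bulk means. Cstb was at 1.88, 1.86 and 1.48 per 10000, with overlapping intervals in the lung libraries. The assay, the cultures and the depth per cell differ between bulk and single-cell data and cannot be told apart here.

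**Figure D5:**
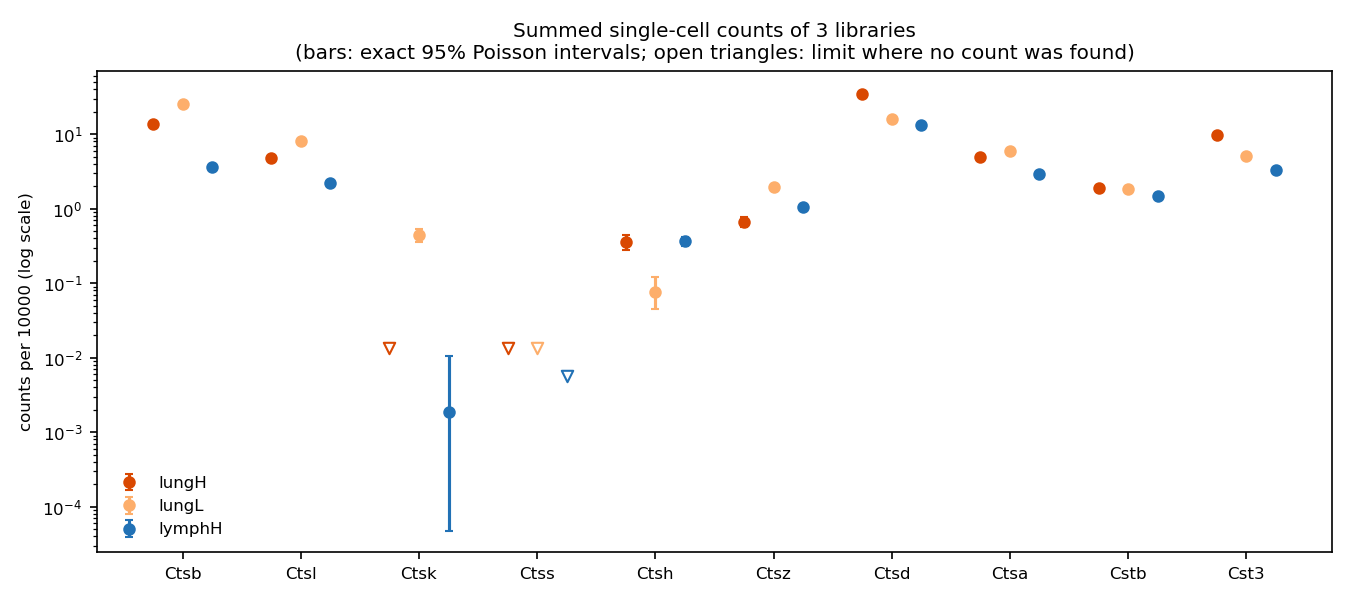
Counts per 10000 (log axis) of the 10 members summed over the kept cells of 3 single-cell libraries, with exact 95% Poisson intervals. Open triangles give the limit of 3 counts where no count was found. Ctsd and Cst3 are highest in lungH (34.8 and 9.63), Ctsb, Ctsl, Ctsa, Ctsz and Ctsk in lungL, and Ctss has no count.

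Since lungL cells held more counts, the share of cells with a count was also taken after each cell was thinned to 500 counts. This left 948 cells in lungH, 314 in lungL and 1903 in lymphH, with 288, 34 and 659 shallower cells left out. Ctsd was found in 62.8%, 71.0% and 32.7% of all kept cells of lungH, lungL and lymphH, and in 59.1%, 45.5% and 27.7% of thinned cells. Cst3 was found in 33.8%, 52.6% and 19.6% before and in 24.2%, 16.9% and 10.98% after thinning. Ctsb was found in 46.1%, 77.6% and 19.9% before and in 36.9%, 60.5% and 11.5% after. For Ctsd and Cst3 the order of the lung libraries was thus reversed by depth, and after thinning it followed the level per 10000. For Ctsk the share was 11.5% of lungL cells and 0.039% of lymphH cells, and after thinning 3 of 314 and 1 of 1903 cells had a count, too few to compare.

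Counts are sparse at this depth, so that a cell without a count may still hold the transcript. Fibroblast markers summed to 0.669, 22.1 and 0.132 per 10000 in lungH, lungL and lymphH, and epithelial markers to 4.37, 1.62 and 10.7. Dcn, at 4091 and 4315 TPM in bulk lung CD44low, had 22 counts in lungL (0.0991 per 10000), whereas Col1a2, at 47.8 and 77.8 TPM in bulk lung CD44low, had 3192 (14.4 per 10000). The part of these markers in the differences was not tested. In the barcodes that were not kept, Cst3 stood at 9.50, 5.90 and 2.88 per 10000 and Ctsk at 0, 0.300 and 0. Ctsd stood there at 26.9, 7.33 and 10.6 and Ctsb at 10.9, 14.6 and 2.65, below the kept cells, and Cstb at 1.58, 2.86 and 1.24, above the kept cells in lungL. Free RNA therefore cannot be told apart from low expression for members whose level in these barcodes is near that of the kept cells, and the shares of cells above include it.

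For each tested member, the 2 genes with the most alike pattern were taken by Pearson's r of log2(TPM + 1) over the 14 libraries, which fall into 7 groups of 2 and so are not 14 independent points. They were Dnpep (0.984) and Fam3a (0.979) for Ctsb, Pter (0.962) and Akirin1 (0.960) for Ctsl, and Gpr173 (0.9995) and Abi3bp (0.9993) for Ctsk. They were Angel2 (0.919) and Samd5 (0.912) for Ctsh, Gmppa (0.941) and Galk2 (0.932) for Ctsz, and Tmem140 (0.952) and Idh1 (0.943) for Ctsd. They were Fam161a (0.983) and Cyp4v3 (0.982) for Ctsa, Tstd3 (0.961) and Akip1 (0.945) for Cstb, and Fam13c (0.983) and Aga (0.983) for Cst3. Aga is a lysosomal hydrolase of the list above, and the likeness of Ctsk rests on the 2 lung CD44low libraries.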

How the data were processed

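Bulk RNA was amplified by a modified SMART-seq2 protocol and sequenced; the authors aligned reads with STAR to mm10, quantified genes with RSEM and deposited TPM for 14 libraries. For single cells, the authors used droplet 3′ libraries and kallisto and deposited unfiltered counts per gene and barcode; whether a count is a molecule or a read is not given in the sources used here. Versions of the aligner and quantifiers are not given there either. The study's methods state a minimum depth for the bulk libraries, but the TPM do not give the reads of each library.

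Here log2(TPM + 1) was fitted with limma 3.58.1 (R 4.3.3) on 7 group means with a mean-variance trend, over the 15348 genes that reached 1 TPM in 2 or more libraries. Of 12 comparisons, each was adjusted by Benjamini-Hochberg over all tested genes, with calls at an adjusted p below 0.05 and 7 residual degrees of freedom before moderation. Median-ratio scaling divided each library by a size factor, the median over 8694 genes of its TPM relative to the gene's geometric mean; the other alternatives changed the pseudocount (0.1), the filter (none, or 5 TPM), the samples in the fit and the replicate block, or left out 1 library.

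Single-cell barcodes with over 250 genes and under 10% mitochondrial counts were kept (Python 3.11.15, scanpy 1.11.5), and doublets were left in, since the caller Scrublet marked 1, 0 and 4 cells and so did not work as a filter. Intervals are exact at 95%, and a count of 0 is given the limit of 3 counts. Barcodes shared between libraries were not counted; no pair of cells of different libraries had identical profiles.

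All members were named. From the other lists, the 2 called genes with the largest rise and the 2 with the largest fall in each comparison could be named, and for each member the 2 genes of most alike pattern. The members and lists were chosen with earlier results of these data known. The matched promoter sequences are from RefSeq (GRCm38.p6), and protein sequences were not used here.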

Additional observations from a re-analysis of the deposited data

Results flagged for a closer look

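For 3 members, in 4 cases, the CD44 difference within the lung lines differed from that in another organ by the interaction test (limma, Benjamini-Hochberg adjusted over all tested genes). Values are the log2 difference of CD44high to CD44low in lung minus that in the other organ. For Ctsz they were -2.004 against LN and -2.714 against BM, and both Ctsz calls remained whichever library was left out. For Ctsh the value against BM was 2.177, and for Cstb that against LN was -1.304. The Ctsh call was lost in 2 and the Cstb call in 9 of the 14 fits with 1 library left out. Ctsk, which passed the filter on low TPM through lung CD44low alone, is given as a description only, at -3.691 against LN and -3.828 against BM. These sizes depend on the value of 1 added to TPM, since Ctsk was listed at 0 in both LN CD44high and both BM CD44low libraries, and the bulk signal rests on 16.2 and 10.4 TPM in the 2 lung CD44low libraries. Groups of 2 are too small to look for single outlying libraries.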

How the results depend on the processing

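Without Ctsk, which passed the filter on low TPM through lung CD44low alone, 43 member differences were called, and of these 43 remained with a pseudocount of 0.1, 43 with a minimum of 5 TPM, 42 with the replicate block, 39 with no filter, 29 under median-ratio scaling, 29 when only the groups compared were fitted, and 21 in all 14 fits with 1 library left out. Ctsk was called in lung CD44low against MFP, between the lung sorts, in lung against LN and BM and in either interaction. Those calls were set by the filter, so the counts that follow are from other comparisons. No called difference turned its direction. Under median-ratio scaling the members called against MFP were 2 in LN CD44high, 2 in BM CD44low and 2 in BM CD44high, from 4, 5 and 4. Over all tested genes, that scaling changed those called lower in these groups from 2752, 2121 and 2858 to 1199, 1306 and 1257. Those called higher changed from 901, 1436 and 1286 to 1389, 1753 and 1827. With only the groups compared the members called were 0 in LN CD44low, 1 in BM CD44low and 3 between the lung sorts, from 4, 5 and 6. With 1 library left out, members called against MFP ranged from 2 to 5 in LN CD44low, 1 to 5 in LN CD44high, 2 to 6 in BM CD44low, 1 to 5 in BM CD44high, 3 to 6 in lung CD44low and 5 to 7 in lung CD44high. The same range was 0 to 0 between the LN sorts, 0 to 1 between the BM sorts, 3 to 7 between the lung sorts, 7 to 8 for lung against LN and BM, and 2 to 4 in either interaction. The lowest counts came without MFP replicate 1 (2 in LN CD44low, 2 in BM CD44low), LN CD44high replicate 2 (1), BM CD44high replicate 2 (1), lung CD44low replicate 2 (3), and, between the lung sorts, lung CD44low replicate 1 or lung CD44high replicate 1 (3 each). Same-numbered libraries did not deviate together (correlations of -0.194 to 0.168 over 21 pairs of groups), so the numbers were not taken as pairs. The replicate block ended the Cstb call in the interaction with LN (adjusted p = 0.0508) and changed no other call of a member. The cause of these changes was not tested. Calls over all tested genes are not given here for fits of only the groups compared or with 1 library left out. Whether member calls in those fits changed more than the calls of all genes was therefore not tested. The precision of bulk values is limited by 2 libraries per group, and the reads of each library are not in the TPM.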

Other observations

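Several other lysosomal genes that separated the bulk lines were also counted in the single-cell libraries, with 1 library per line and so no test. Hexa, listed at 0 in both bulk lung CD44high libraries and at 0.13 and 0 TPM in MFP, had 0 counts in lungH (a limit of 0.0136 per 10000), 389 in lungL (1.75 per 10000, 95% interval 1.58 to 1.94) and 459 in lymphH (0.868, 0.791 to 0.951). Dpp7 had 56 counts in lungH, 71 in lungL and 0 in lymphH, and Pla2g15 had 49, 33 and 9. The cystatin Cst6 stood at 1.03 per 10000 in lungH, 0.0585 in lungL and 2.83 in lymphH. Ctsc had 0 counts in lungH, 7 in lungL and 103 in lymphH, and Ctso had 85, 39 and 1. The 36 lysosomal hydrolases together made up 46.3 per 10000 counts in lungH, 54.1 in lungL and 25.3 in lymphH.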
